A study of Homo sapiens with 12 samples.

Results

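Glucose is taken up by transporters of the SLC2A family, phosphorylated by hexokinases and split by the enzymes of glycolysis into pyruvate. Pyruvate is reduced to lactate by lactate dehydrogenase and exported by monocarboxylate transporters, or enters the mitochondria, where the pyruvate dehydrogenase (PDH) complex turns it into acetyl-CoA unless PDH kinases (PDK) phosphorylate the complex. The pentose phosphate pathway branches off after hexokinase and gives ribose and NADPH. Many of these steps have several isoenzymes encoded by different genes, and carcinoma cells are known for high glucose uptake and lactate release in the presence of oxygen.

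The levels of 36 genes of these pathways were compared, out of 61533 genes in the files. The list was given by gene name and not by a rule on measured values, but it was chosen with earlier results of these data known. It holds 2 glucose transporters, 9 genes of upper and 6 of lower glycolysis, 3 PFKFB genes, 4 genes of lactate formation and transport, 6 of the pentose phosphate pathway and 6 of pyruvate entry. All 36 passed the filter on low counts. Total RNA of 3 untreated human ovarian lines was sequenced, with 4 libraries for each line. PEO-4 is labelled as an ovarian cystadenocarcinoma line and called high-grade serous in the paper. SKOV-3 is labelled as an ovarian serous cystadenocarcinoma line and described in the paper as clear cell carcinoma. T1074 is a line of ovarian epithelial cells immortalized with SV40 and labelled wild type, as are the other lines. Each type of cell was thus represented by 1 line, and the growth medium was RPMI 1640 for PEO-4, McCoy's 5A for SKOV-3 and Prigrow I for T1074. Line and medium therefore cannot be told apart. The labels do not say whether replicates were separate cultures, so that p-values measure the spread between these libraries only.

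Levels are given as CPM, counts of a gene relative to the total count of its library scaled with TMM factors, and as mean ± SD of 4 libraries. Differences are log2 fold changes ± SE of the quasi-likelihood test of edgeR, adjusted for all 19898 genes tested, and a gene is called higher or lower at an adjusted p under 0.05. In bulk RNA a lower level in every cell and a smaller share of cells that express the gene cannot be told apart. The 12 libraries held 19780836 to 55739060 counts, the fewest in T1074 replicate 1. Protein-coding genes held from 60.9% of the counts (PEO-4 replicate 1, TMM factor 0.883) to 82.0% (T1074 replicate 2, TMM factor 1.21). T1074 replicate 1 had 65.4%, so that this share also differed within a line. Of the epithelial markers, KRT7, KRT8, KRT18 and KRT19 were present in all lines (64.0 to 988.6 CPM on average), whereas EPCAM averaged 163.2 CPM in PEO-4, 24.6 CPM in SKOV-3 and 0.0964 CPM in T1074, and CDH1 148.1, 25.9 and 0.354 CPM. The 6 stroma markers together reached 63.6 to 99.1 CPM in PEO-4 libraries, 9.26 to 40.9 CPM in SKOV-3 libraries and 227.6 to 908 CPM in T1074 libraries, where COL1A1 averaged 486 CPM. Single stroma markers went different ways. THY1 averaged 81.7 CPM in PEO-4, 1.20 CPM in SKOV-3 and 45.1 CPM in T1074, and PDGFRB 0.32, 0.19 and 30.4 CPM. COL1A2 averaged 0.065, 3.65 and 0.61 CPM, LUM 0, 1.02 and 0.062 CPM, and DCN 0.040, 0.12 and 1.76 CPM. The endothelial markers PECAM1 and VWF averaged at most 2.05 CPM in any line. Of the 2 leukocyte markers, PTPRC averaged at most 0.115 CPM, whereas CD68 averaged 1.10 CPM in PEO-4, 4.79 CPM in SKOV-3 and 10.4 CPM in T1074, and both together reached 0.623 to 1.49 CPM in PEO-4 libraries, 1.52 to 6.74 CPM in SKOV-3 libraries and 7.33 to 16.7 CPM in T1074 libraries. The part of these marker differences in the results was not tested. The 4 PEO-4 libraries fell into pairs for many of the 36 genes, with replicates 2 and 3 apart from replicates 1 and 4, and the comparisons were repeated without each pair.

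The 36 genes took a larger share of the transcripts in SKOV-3 than in the other lines. Of the TPM of protein-coding genes, they held between 1.08% and 1.36% in PEO-4 libraries, between 1.86% and 2.08% in SKOV-3 libraries, and between 0.841% and 1.15% in T1074 libraries. By TPM, the SKOV-3 libraries did not overlap with the others, whereas PEO-4 and T1074 libraries did. Of the counts of protein-coding genes, the 36 genes held 1.14% to 1.38% in PEO-4 libraries and 0.760% to 1.06% in T1074 libraries. SKOV-3 libraries held 1.81% to 2.05%, and by counts no lines overlapped. On the TPM scale, which is per transcript length and set to the same sum over protein-coding genes in each library, GAPDH ranked first in PEO-4 (3940) and in T1074 (2477). ENO1 ranked first in SKOV-3 (3727), where GAPDH (2699) came after PKM (3408) and LDHA (2949).

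In PEO-4 against T1074, 17 of the 36 genes were higher and 11 lower, and 8 did not pass. Over all genes tested, 36.3% were higher and 37.8% lower in PEO-4. The median log2 fold change of the 36 genes was 0.30, against -0.01 for all genes tested and -0.16 for protein-coding genes. In SKOV-3 against T1074, 19 were higher and 10 lower, and 7 did not pass, with 33.3% of all genes higher and 34.5% lower. The median was 0.49, against -0.03 for all genes and 0 for protein-coding genes. In PEO-4 against SKOV-3, 12 were higher and 20 lower, and 4 did not pass, with 38.5% of all genes higher and 36.7% lower. Here the median was -0.49, against 0.05 for all genes and -0.12 for protein-coding genes. If a log2 fold change beyond 1 in either direction was required as well, 2 were higher and 5 lower in PEO-4 than in T1074. In SKOV-3 against T1074, 14 were then higher and 7 lower. With scaling by library size only, 11 were higher and 11 lower in PEO-4 than in T1074, and 18 and 12 in SKOV-3 than in T1074. The shares of all genes were not counted under either setting, so that these counts have no background. The genes are described in the order of the pathway, and both comparisons with T1074 share the same 4 T1074 libraries.

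**Figure D1:**
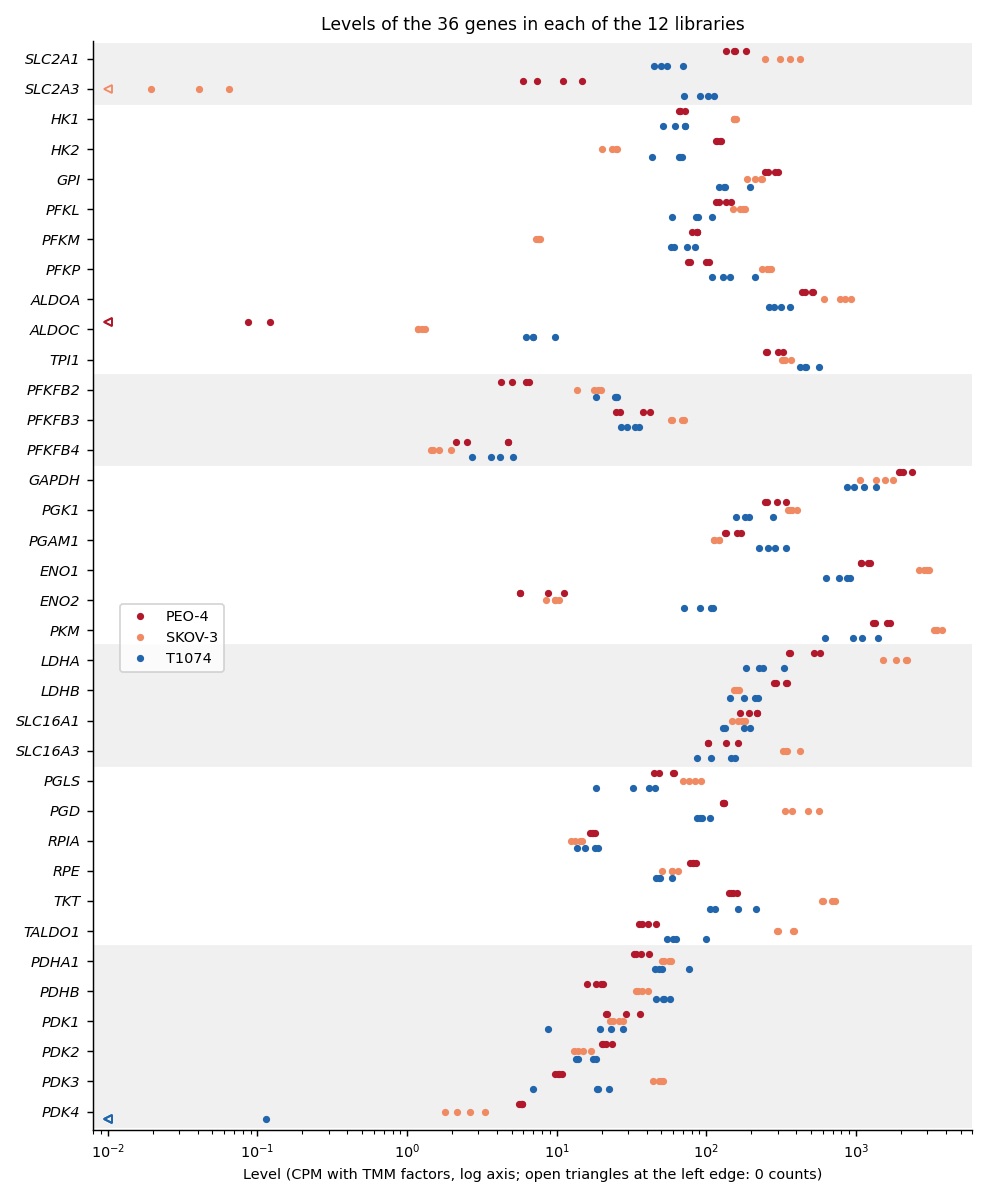
Level of each of the 36 genes (CPM with TMM factors, log axis) in the 4 libraries of PEO-4, SKOV-3 and T1074, with 1 point a library, grey and white bands for the groups of the pathway, and open triangles for libraries with 0 counts. SLC2A3 lies below 0.1 CPM in SKOV-3 and above 70 CPM in T1074, and the 4 SKOV-3 libraries lie above all others for LDHA, PKM, ENO1, PGD, TKT and TALDO1.

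The main glucose transporters moved in opposite directions. SLC2A1 (GLUT1), the widely expressed transporter for basal uptake, had 154.3, 184.3, 134.4 and 155.5 CPM in PEO-4, 360.9, 311.6, 422.7 and 248.6 CPM in SKOV-3, and 44.6, 49.99, 69.7 and 54.6 CPM in T1074. None of the 3 ranges overlapped. SLC2A1 was higher in PEO-4 than in T1074 by 1.52 ± 0.17 (adjusted p = 1.94e-06), and in SKOV-3 than in T1074 by 2.62 ± 0.18 (adjusted p = 1.37e-08). The leading SLC2A1 transcript in all lines, SLC2A1-208, is annotated as subject to nonsense-mediated decay and not as coding. It held 28.6% of SLC2A1 TPM in PEO-4, 32.6% in SKOV-3 and 32.0% in T1074.

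SLC2A3 (GLUT3), a high-affinity transporter best known from neurons, went the other way. It had 7.44, 14.8, 11.0 and 5.95 CPM in PEO-4 and 90.1, 71.0, 102.8 and 112 CPM in T1074, while the 4 SKOV-3 libraries held 1, 0, 3 and 2 counts. PEO-4 was lower than T1074 by -3.26 ± 0.26 on the log2 scale (adjusted p = 4.97e-08). The summed count of SLC2A3 in SKOV-3 was 6, and the level in T1074 was 3115 times that of SKOV-3, with a 95% interval of 1431 to 8489 that covers counting error only. A processed copy, SLC2A3P1, held 595.6 counts over the PEO-4 libraries, 460.5 over SKOV-3 and 748.8 over T1074. The size of the difference depended on the processing, while the call was kept under 23 alternative fits, which included adding the counts of such copies. The log2 fold change of SLC2A3 then ran from -12.04 to -5.225 in SKOV-3 against T1074. In PEO-4 against SKOV-3 it ran from 2.384 to 8.781. SLC2A14, a close paralog of SLC2A3, held 28.6 counts over PEO-4, 24.0 over SKOV-3 and 30.4 over T1074. By TPM, SLC2A3 made up 2.89% ± 1.2 of SLC2A1 and SLC2A3 together in PEO-4, 0.00246% ± 0.0049 in SKOV-3 and 43.7% ± 8.4 in T1074 (SD, n = 4 each). Each pair of lines differed in this share without overlap (exact permutation test, two-sided, p = 0.0286, adjusted over 51 tests 0.0374, the smallest values that 4 against 4 libraries allow here).

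Hexokinases, which trap glucose in the cell, differed in kind between the carcinoma lines. HK2, the inducible form, had 125.3, 116.8, 118.2 and 122.5 CPM in PEO-4, 23.6, 20.0, 24.98 and 25.3 CPM in SKOV-3 and 67.0, 43.6, 65.4 and 68.9 CPM in T1074. HK2 was thus highest in PEO-4 and lowest in SKOV-3, with a log2 difference of 0.98 ± 0.13 in PEO-4 against T1074 (adjusted p = 1.14e-05) and -1.38 ± 0.14 in SKOV-3 against T1074 (adjusted p = 5.21e-07). HK1, the housekeeping form, averaged 154.9 ± 1.5 CPM in SKOV-3 and 64.3 ± 9.6 CPM in T1074, a rise of 1.27 ± 0.11 (adjusted p = 1.08e-07), while PEO-4 (67.5 ± 2.8 CPM) did not differ beyond the spread from T1074 (adjusted p = 0.572). HK2 made up 53.2% ± 2.2 of the TPM of HK1 and HK2 in PEO-4, 8.598% ± 0.81 in SKOV-3 and 37.1% ± 3.0 in T1074 (SD, n = 4 each), without overlap between any lines. HKDC1, a further hexokinase-like gene and not among the 36, averaged 13.6 ± 2.7 CPM in PEO-4, 155.5 ± 39 CPM in SKOV-3 and 2.41 ± 0.78 CPM in T1074. HKDC1 was higher in SKOV-3 than in T1074 by 6.03 ± 0.27 (adjusted p = 1.96e-10).

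GPI, which turns glucose 6-phosphate into fructose 6-phosphate, was higher than in T1074 by 0.91 ± 0.15 in PEO-4 (adjusted p = 5.83e-05) and by 0.57 ± 0.15 in SKOV-3 (adjusted p = 0.00307). The most abundant GPI transcript differed between lines: GPI-205 held 24.8% of GPI TPM in PEO-4, 23.4% in SKOV-3 and 22.0% in T1074, whereas GPI-201 held 18.6%, 17.3% and 42.4%.

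Phosphofructokinase, the committed step of glycolysis, is a tetramer of the products of PFKL, PFKM and PFKP, named for liver, muscle and platelets. PFKM had 86.1, 79.7, 86.1 and 87.2 CPM in PEO-4, 7.25, 7.71, 7.47 and 7.66 CPM in SKOV-3 and 74.0, 58.0, 60.9 and 83.7 CPM in T1074. SKOV-3 was lower than T1074 by -3.20 ± 0.12 on the log2 scale (adjusted p = 3.54e-11). PFKM was also higher in PEO-4 than in T1074 by 0.29 ± 0.11 (adjusted p = 0.0271), a call that was lost without T1074 replicate 2 (adjusted p = 0.0996) or 3 (0.0632), without PEO-4 replicates 1 and 4 together, and with scaling by library size only. PFKP averaged 89.6 ± 14.7 CPM in PEO-4, 256.2 ± 15.4 CPM in SKOV-3 and 148.1 ± 44.3 CPM in T1074, lower in PEO-4 than in T1074 (-0.73 ± 0.18, adjusted p = 0.00191) and higher in SKOV-3 than in T1074 (0.79 ± 0.18, adjusted p = 0.00115). PFKL was higher than in T1074 in PEO-4 (0.60 ± 0.15, adjusted p = 0.00265) and in SKOV-3 (0.98 ± 0.15, adjusted p = 5.60e-05).

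As a share of the TPM of the 3 genes, PFKM made up 32.7% ± 4.1 in PEO-4, 2.06% ± 0.26 in SKOV-3 and 25.2% ± 2.1 in T1074, and PFKP made up 29.2% ± 2.5, 61.9% ± 2.3 and 49.2% ± 4.7 (SD, n = 4 each). The PFKP shares of the lines did not overlap. The leading PFKM transcript was PFKM-210 in PEO-4 (38.0% of PFKM TPM) and SKOV-3 (28.8%), with 16.9% in T1074, where PFKM-225 led with 25.4%, against 1.80% in PEO-4 and 2.46% in SKOV-3. PFKM-225 starts at position 48119787 and PFKM-210 at 48122647 of chromosome 12 (GRCh38). In the test of transcripts, PFKM-225 was lower in PEO-4 than in T1074 by -3.34 ± 0.66 (adjusted p = 0.00164 over 76043 transcripts).

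The PFKFB genes encode the enzymes that make and break fructose 2,6-bisphosphate, the strongest activator of phosphofructokinase. PFKFB3, the form with the highest kinase activity, had 70.7, 59.4, 68.5 and 58.1 CPM in SKOV-3 and 26.9, 29.7, 35.6 and 33.3 CPM in T1074, which did not overlap (1.03 ± 0.16, adjusted p = 5.34e-05). In PEO-4 it had 24.8, 37.5, 42.1 and 26.7 CPM and did not pass against T1074 (adjusted p = 0.739). PFKFB2, the heart form, averaged 5.50 ± 1.1 CPM in PEO-4, 17.5 ± 2.7 CPM in SKOV-3 and 23.4 ± 3.3 CPM in T1074. It was lower in PEO-4 than in T1074 by -2.09 ± 0.17 (adjusted p = 5.10e-08), whereas the call for SKOV-3 (-0.42 ± 0.16, adjusted p = 0.0318) was lost under 11 of 23 alternatives, among them without SKOV-3 replicate 1 or 2, T1074 replicate 1, 2 or 4, or PEO-4 replicate 1, 2 or 4 (adjusted p = 0.0585 to 0.113). PFKFB4 was low in all lines, with 3.54 ± 1.4 CPM in PEO-4, 1.64 ± 0.24 CPM in SKOV-3 and 3.90 ± 0.99 CPM in T1074, and lower in SKOV-3 than in T1074 (-1.26 ± 0.28, adjusted p = 0.00109). PFKFB3 transcripts differed in kind: PFKFB3-203 (start at position 6202932 of chromosome 10, GRCh38) held 24.8% of PFKFB3 TPM in PEO-4, 51.3% in SKOV-3 and 13.6% in T1074, and PFKFB3-205 (start at position 6144934) held 37.7%, 16.3% and 61.1%.

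Aldolase cleaves fructose 1,6-bisphosphate, and triose phosphate isomerase (TPI1) converts its products into each other. ALDOA, the main form of muscle and most cells, averaged 477 ± 39.7 CPM in PEO-4, 788.8 ± 132.9 CPM in SKOV-3 and 306.4 ± 44.2 CPM in T1074. No 2 lines overlapped, and ALDOA was higher than in T1074 by 0.64 ± 0.14 in PEO-4 (adjusted p = 0.000963) and by 1.36 ± 0.14 in SKOV-3 (adjusted p = 1.13e-06). ALDOC, the brain form, had 9 counts in all in PEO-4, in 2 of 4 libraries, 1.32, 1.19, 1.18 and 1.25 CPM in SKOV-3, and 6.97, 6.90, 6.22 and 9.70 CPM in T1074. SKOV-3 was lower than T1074 by -2.59 ± 0.30 (adjusted p = 3.32e-06), and the level in T1074 was 140.3 times that of PEO-4 by summed counts (95% interval 73.9 to 306.7). TPI1 averaged 282.2 ± 36.1 CPM in PEO-4, 338.7 ± 21.9 CPM in SKOV-3 and 475.9 ± 61.5 CPM in T1074, and its T1074 libraries lay above all others. The log2 fold change against T1074 was -0.75 ± 0.12 in PEO-4 (adjusted p = 5.97e-05) and -0.49 ± 0.12 in SKOV-3 (adjusted p = 0.00247).

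**Figure D2:**
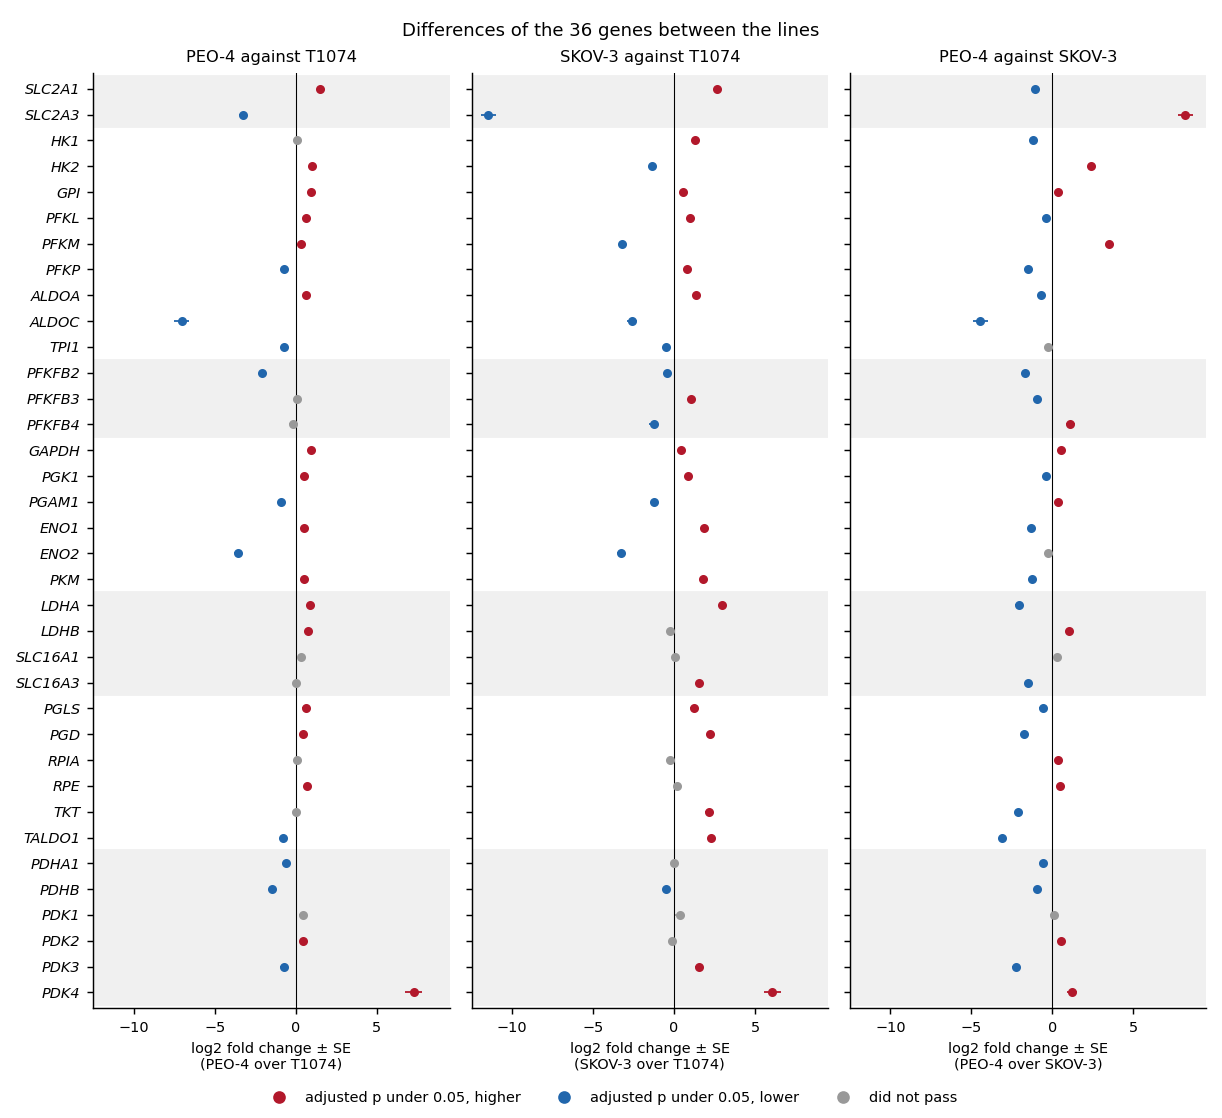
Log2 fold change ± SE of each of the 36 genes in PEO-4 over T1074, SKOV-3 over T1074 and PEO-4 over SKOV-3, from edgeR, with red for higher and blue for lower at an adjusted p under 0.05 and grey for genes that did not pass. SLC2A3, ALDOC and PDK4, of which 1 line each held few counts, lie far out, and TALDO1 was -0.79 in PEO-4 over T1074 and 2.30 in SKOV-3 over T1074.

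In lower glycolysis, 4 of 6 genes were higher and 2 lower in PEO-4 than in T1074 (median log2 fold change 0.51), and 4 were higher and 2 lower in SKOV-3 than in T1074 (0.64). Over all genes tested, 36.3% were higher and 37.8% lower in PEO-4, and 33.3% higher and 34.5% lower in SKOV-3. ENO1, the widely expressed enolase, had 1088, 1234, 1200 and 1075 CPM in PEO-4, 3072, 2970, 2635 and 2828 CPM in SKOV-3 and 768, 627.9, 910.6 and 877.8 CPM in T1074. It was higher in SKOV-3 than in T1074 by 1.85 ± 0.14 (adjusted p = 2.86e-08) and in PEO-4 than in T1074 by 0.53 ± 0.13 (adjusted p = 0.00242). ENO2, the neuronal enolase, had 5.68, 8.76, 11.3 and 5.71 CPM in PEO-4, 9.75, 8.45, 10.3 and 9.75 CPM in SKOV-3 and 110.5, 71.2, 106.7 and 91.1 CPM in T1074. The carcinoma lines overlapped with each other and not with T1074, at -3.59 ± 0.22 in PEO-4 (adjusted p = 2.87e-09) and -3.31 ± 0.22 in SKOV-3 (adjusted p = 8.31e-09) against T1074. ENO2 made up 0.533% ± 0.15 of enolase TPM in PEO-4, 0.283% ± 0.041 in SKOV-3 and 9.35% ± 1.2 in T1074 (SD, n = 4 each).

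GAPDH, which makes NADH and is often used as a reference gene, had 1970, 2362, 2051 and 1931 CPM in PEO-4, 1756, 1556, 1369 and 1072 CPM in SKOV-3 and 969.6, 864.6, 1136 and 1367 CPM in T1074. PEO-4 lay above both other lines without overlap, and was higher than T1074 by 0.94 ± 0.17 (adjusted p = 0.00021). The difference of SKOV-3 from T1074 (0.41 ± 0.17) lay at the threshold, with an adjusted p of 0.0499, and was lost under 13 of 23 alternatives, among them without SKOV-3 replicate 1, 2 or 3 and without T1074 replicate 1, 2 or 3 (adjusted p = 0.0508 to 0.150). PGK1, which makes the first ATP of the pathway, was higher than in T1074 by 0.49 ± 0.16 in PEO-4 (adjusted p = 0.0127) and by 0.88 ± 0.16 in SKOV-3 (adjusted p = 0.000224). The difference of PEO-4 was lost without PEO-4 replicates 2 and 3 together (adjusted p = 0.0661) and with scaling by library size only (0.0751). PGAM1, phosphoglycerate mutase, averaged 149.7 ± 19 CPM in PEO-4, 117.1 ± 5.1 CPM in SKOV-3 and 277.5 ± 49.3 CPM in T1074, lower in PEO-4 by -0.89 ± 0.13 (adjusted p = 2.39e-05) and in SKOV-3 by -1.25 ± 0.13 (adjusted p = 1.14e-06).

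PKM encodes pyruvate kinase, the last step. It had 1343, 1617, 1679 and 1298 CPM in PEO-4, 3754, 3482, 3308 and 3445 CPM in SKOV-3 and 957.6, 623.7, 1102 and 1408 CPM in T1074. SKOV-3 was higher than T1074 by 1.77 ± 0.20 (adjusted p = 2.68e-06). PEO-4 and T1074 overlapped, and their difference (0.54 ± 0.20, adjusted p = 0.0247) was lost without T1074 replicate 1 (adjusted p = 0.0537) or 2 (0.0627), without PEO-4 replicates 2 and 3 together (0.105), and with scaling by library size only (0.0667).

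The transcripts of PKM carry 1 of 2 exons of 167 bases each, which give the M1 form of adult muscle and brain and the M2 form of embryonic and proliferating cells. The exons are shown because they decide which of the enzymes the reads belong to, and capitals mark the 62 positions at which they differ. They lie on the minus strand of chromosome 15, at chr15:72203022-72203188 for PKM1 and chr15:72202454-72202620 for PKM2 (GRCh38), with 401 bases between them, and are coding exons.
PKM1 exon: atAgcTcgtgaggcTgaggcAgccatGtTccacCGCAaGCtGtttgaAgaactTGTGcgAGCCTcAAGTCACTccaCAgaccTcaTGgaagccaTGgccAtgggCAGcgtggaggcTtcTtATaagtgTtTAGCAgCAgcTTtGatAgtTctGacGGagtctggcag
PKM2 exon: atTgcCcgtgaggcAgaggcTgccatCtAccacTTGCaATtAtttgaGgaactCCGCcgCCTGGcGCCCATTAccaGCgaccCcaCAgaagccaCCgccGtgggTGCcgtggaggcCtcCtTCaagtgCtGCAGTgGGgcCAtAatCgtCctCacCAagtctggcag

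The exons share 62.9% of their 167 bases, and 5 annotated transcripts hold the PKM1 exon and 3 the PKM2 exon. Nearly all PKM transcript abundance was of the M2 type in the 12 libraries. PKM1 made up 2.25% ± 0.28 in PEO-4, 1.39% ± 0.11 in SKOV-3 and 1.82% ± 0.61 in T1074 of PKM1 and PKM2 TPM (SD, n = 4 each). PEO-4 lay above SKOV-3 (1.85% to 2.496% against 1.302% to 1.55%), with an adjusted p of 0.0374 in the exact permutation test, and neither carcinoma line differed from T1074 beyond the spread (adjusted p = 0.291 for PEO-4 and 0.317 for SKOV-3). PKM-202, the leading M2 transcript, was higher in SKOV-3 than in T1074 by 1.93 ± 0.20 (adjusted p = 2.06e-05 over transcripts). PTBP1, a splicing factor known to repress the PKM1 exon, averaged 155.9 ± 7.4 CPM in PEO-4, 211.7 ± 15.6 CPM in SKOV-3 and 250.8 ± 63.3 CPM in T1074, and was named after its values were seen.

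Lactate dehydrogenase reduces pyruvate to lactate, and tetramers rich in the LDHA product favour that direction while those rich in the LDHB product favour the reverse. LDHA (ENSG00000134333.14, chromosome 11) had, after PDK4, the largest log2 fold change above T1074 of the 36 genes in SKOV-3. It had 356.7, 525.1, 578 and 359.7 CPM in PEO-4, 2158, 1855, 2208 and 1524 CPM in SKOV-3 and 226.4, 183.8, 241 and 329.8 CPM in T1074. The 3 lines did not overlap, and LDHA was higher than in T1074 by 2.98 ± 0.22 in SKOV-3 (adjusted p = 2.81e-08), or 7.90-fold, and by 0.89 ± 0.21 in PEO-4 (adjusted p = 0.00129), or 1.85-fold. LDHB had 345.6, 294.3, 285 and 343 CPM in PEO-4, 164.1, 162.8, 153.4 and 158.1 CPM in SKOV-3 and 211.7, 179.8, 143.4 and 222 CPM in T1074. It was higher in PEO-4 than in T1074 by 0.74 ± 0.13 (adjusted p = 0.000128) and did not pass in SKOV-3 against T1074 (-0.25 ± 0.13, adjusted p = 0.109). LDHB made up 46.1% ± 8.2 of LDH TPM in PEO-4, 9.07% ± 1.7 in SKOV-3 and 49.5% ± 6.5 in T1074 (SD, n = 4 each). The SKOV-3 share lay below all other libraries, while PEO-4 and T1074 overlapped (adjusted p = 0.535).

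**Figure D3:**
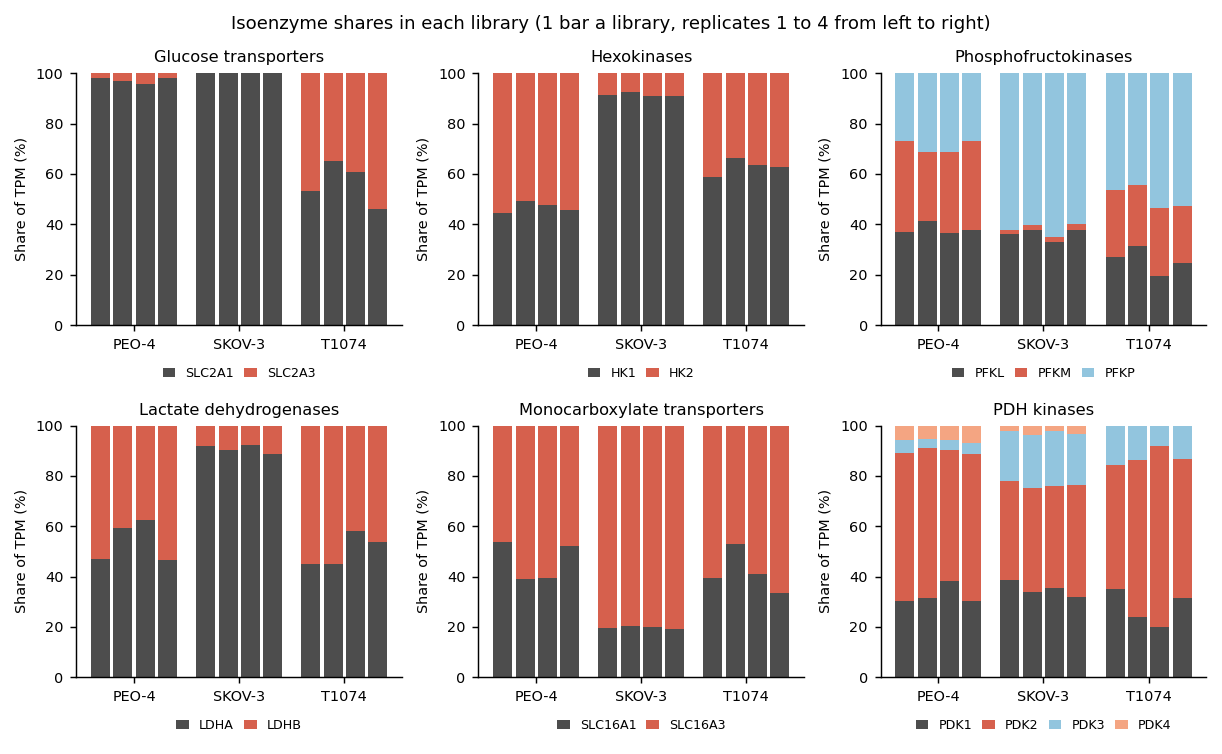
Share of the TPM (percent) of each isoenzyme within 6 families in each library, with 1 bar a library and the lines PEO-4, SKOV-3 and T1074 from left to right. SKOV-3 differs from the other lines in its low shares of SLC2A3 (0.00246%), PFKM (2.06%), HK2 (8.598%) and LDHB (9.07%), and T1074 differs in its share of SLC2A3 (43.7%).

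Lactate leaves or enters the cell through SLC16A1 (MCT1) and SLC16A3 (MCT4), of which MCT4 is known as the exporter of glycolytic cells. SLC16A3 had 101.9, 162.7, 134.9 and 103.4 CPM in PEO-4, 342, 344, 327.7 and 424.9 CPM in SKOV-3 and 107.6, 86.7, 155.8 and 146.4 CPM in T1074. SKOV-3 lay above the other lines, 1.54 ± 0.20 over T1074 (adjusted p = 7.67e-06), while PEO-4 did not pass against T1074 (0.02 ± 0.19, adjusted p = 0.938). SLC16A1 did not pass in any comparison of the main fit, at 199 ± 24.9 CPM in PEO-4, 166.6 ± 14.4 CPM in SKOV-3 and 160.2 ± 33.4 CPM in T1074. In PEO-4 against T1074 (adjusted p = 0.0640), SLC16A1 passed under 10 of 23 alternatives, and in PEO-4 against SKOV-3 (adjusted p = 0.122) under 4. SLC16A3 made up 53.9% ± 7.9 of the TPM of both in PEO-4, 80.2% ± 0.52 in SKOV-3 and 58.3% ± 8.1 in T1074 (SD, n = 4 each). BSG and EMB, the proteins that carry these transporters to the membrane, are not among the 36. EMB had 63.3, 59.0, 62.9 and 67.1 CPM in PEO-4 and 29.9, 33.8, 22.3 and 35.1 CPM in T1074, and 1 count in all in SKOV-3. BSG, which was named after its values were seen, averaged 176.7 ± 0.96 CPM in PEO-4, 1046 ± 55.1 CPM in SKOV-3 and 360 ± 82.6 CPM in T1074, and was thus higher in SKOV-3 (1.54 ± 0.15, adjusted p = 4.05e-07) and lower in PEO-4 (-1.03 ± 0.15, adjusted p = 1.68e-05) than in T1074.

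Many glycolytic genes are known targets of HIF, a factor that binds ACGTG or GCGTG in regulatory DNA under low oxygen. Stretches before the start sites of LDHA and PFKFB4 are shown as examples, LDHA for its rise in SKOV-3 and PFKFB4 for its spread among the PEO-4 libraries. They hold the 250 bases before the RefSeq start site (GRCh38.p14), and capitals mark ACGTG or GCGTG on either strand. The LDHA stretch is chr11:18396101-18396350 on the plus strand, and its RefSeq start site lies 73 bases after that of the leading transcript LDHA-203. The last 73 bases of the LDHA stretch thus lie within LDHA-203 and not before it. The marked bases of LDHA, which begin 123 bases before the RefSeq start site, lie before both start sites. The PFKFB4 stretch is chr3:48556804-48557053 on the minus strand.
LDHA promoter: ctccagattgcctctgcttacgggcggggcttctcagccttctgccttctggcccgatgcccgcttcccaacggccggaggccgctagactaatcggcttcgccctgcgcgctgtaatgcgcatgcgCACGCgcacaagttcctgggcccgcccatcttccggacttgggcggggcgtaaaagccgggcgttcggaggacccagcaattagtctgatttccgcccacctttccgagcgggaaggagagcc
PFKFB4 promoter: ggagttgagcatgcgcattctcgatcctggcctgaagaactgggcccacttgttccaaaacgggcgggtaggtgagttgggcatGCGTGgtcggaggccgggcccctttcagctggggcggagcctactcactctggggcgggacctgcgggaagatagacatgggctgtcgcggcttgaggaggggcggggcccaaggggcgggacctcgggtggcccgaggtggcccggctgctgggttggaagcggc

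For 33 of the 36 genes RefSeq gave a promoter of 250 bases before and 50 after a start site, and the one nearest to the leading transcript was searched on both strands. ACGTG or GCGTG was found in 23 of 33 (69.7%), against 17012 of 35116 promoters of all genes (48.5%). The nearest promoter can lie far from the leading transcript. Its start site was 193509 bases away for PGK1 and 11655 bases away for PDHA1, and both genes are among the 23. The E box CACGTG, which holds ACGTG on either strand, was found in 3 of 33 (9.09%) and 7.26% of all. The core of the antioxidant response element (TGAC and GC with any 3 bases between) was found in 6 of 33 (18.2%) and 13.3% of all, and among them in PGD and PKM but not in TKT or TALDO1. These are descriptions of letters in a window and not of binding, and the motifs were chosen with results of these data known.

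Of the 6 genes of the pentose phosphate pathway, 4 were higher and 0 lower in SKOV-3 than in T1074, with a median log2 fold change of 1.67, against 33.3% higher, 34.5% lower and a median of -0.03 over all genes tested. PGD, which makes NADPH in the oxidative branch, had 132, 130.8, 129.3 and 129.6 CPM in PEO-4, 337.2, 477.4, 375.6 and 567.5 CPM in SKOV-3 and 91.1, 93.7, 87.3 and 105.5 CPM in T1074. It was higher in SKOV-3 than in T1074 by 2.22 ± 0.15 (adjusted p = 9.51e-09) and in PEO-4 than in T1074 by 0.47 ± 0.14 (adjusted p = 0.00846). Transketolase (TKT) and transaldolase (TALDO1) link the pathway back to glycolysis in the non-oxidative branch. TKT had 150.5, 159.5, 145.1 and 141.5 CPM in PEO-4, 687.5, 722.3, 601.7 and 595.7 CPM in SKOV-3 and 163, 114.3, 105.3 and 215.9 CPM in T1074. SKOV-3 was higher than T1074 by 2.12 ± 0.19 (adjusted p = 2.32e-07), and PEO-4 lay within the range of T1074 (adjusted p = 0.987).

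TALDO1 had opposite signs in the carcinoma lines. It had 37.2, 46.2, 41.0 and 35.8 CPM in PEO-4, 296.9, 379.2, 301.8 and 386.2 CPM in SKOV-3 and 59.5, 63.2, 54.9 and 99.1 CPM in T1074, with no overlap between any lines. The log2 fold change against T1074 was -0.79 ± 0.17 in PEO-4 (adjusted p = 0.000897) and 2.30 ± 0.18 in SKOV-3 (adjusted p = 5.24e-08), and PEO-4 was lower than SKOV-3 by -3.09 ± 0.19 (adjusted p = 2.46e-09). PGLS, the lactonase before PGD, was higher than in T1074 by 0.63 ± 0.22 in PEO-4 (adjusted p = 0.0178) and by 1.22 ± 0.22 in SKOV-3 (adjusted p = 0.000186). RPIA and RPE are the isomerase and epimerase of the pentose phosphates. RPE averaged 81.5 ± 2.9 CPM in PEO-4, 58.3 ± 6.1 CPM in SKOV-3 and 50.6 ± 5.7 CPM in T1074. It passed in PEO-4 against T1074 (0.69 ± 0.10, adjusted p = 3.10e-05) and in PEO-4 against SKOV-3 (0.48 ± 0.10, adjusted p = 0.000683). In SKOV-3 against T1074, RPE did not pass (adjusted p = 0.0936), but did so under 10 of 23 alternatives. RPIA averaged 17.4 ± 0.57 CPM in PEO-4, 13.7 ± 1.1 CPM in SKOV-3 and 16.5 ± 2.4 CPM in T1074 and passed in PEO-4 against SKOV-3 (0.34 ± 0.12, adjusted p = 0.0152). That call was lost without SKOV-3 replicate 1, without PEO-4 replicates 1 and 4 together, and without the filter on low counts.

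At the entry of pyruvate into the mitochondria, the genes of the first subunit of PDH were lower in PEO-4. PDHA1, the catalytic alpha subunit, averaged 36.3 ± 3.9 CPM in PEO-4, 54.5 ± 3.5 CPM in SKOV-3 and 55.1 ± 14.5 CPM in T1074, with PEO-4 lower than T1074 by -0.60 ± 0.15 (adjusted p = 0.00229). PDHB, the beta subunit, had 15.9, 19.8, 20.4 and 18.3 CPM in PEO-4, 34.8, 37.0, 34.0 and 40.5 CPM in SKOV-3 and 46.1, 51.6, 52.4 and 56.9 CPM in T1074. No lines overlapped, and PDHB was lower than in T1074 by -1.47 ± 0.11 in PEO-4 (adjusted p = 1.89e-08) and by -0.50 ± 0.11 in SKOV-3 (adjusted p = 0.00076).

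The 4 PDH kinases, which switch PDH off, had different patterns. PDK4, the kinase induced by fasting and fatty acids in many tissues, had 5.59, 5.89, 5.74 and 5.86 CPM in PEO-4 and 1.79, 3.34, 2.14 and 2.64 CPM in SKOV-3, while T1074 held 5 counts, all in replicate 2. By summed counts the level was 167.1 times that of T1074 in PEO-4 (95% interval 71.6 to 514.6) and 72.0 times in SKOV-3 (30.9 to 221.8). PDK3 averaged 10.3 ± 0.40 CPM in PEO-4, 48.4 ± 3.2 CPM in SKOV-3 and 16.8 ± 6.8 CPM in T1074, and was higher in SKOV-3 than in T1074 by 1.53 ± 0.25 (adjusted p = 7.11e-05). The lower level of PDK3 in PEO-4 (-0.70 ± 0.25, adjusted p = 0.0195) was lost under 8 of 23 alternatives, among them without any one PEO-4 replicate and without T1074 replicate 2 (adjusted p = 0.0644 to 0.0886). PDK1, a known HIF target, did not pass in any comparison of the main fit. It passed under 2 of 23 alternatives in PEO-4 against T1074 and under 1 in SKOV-3 against T1074. T1074 replicate 3 had the lowest level of PDK1, 8.74 CPM, against 19.5 to 27.8 CPM in the other T1074 libraries. PDK2, the widely expressed kinase, was higher in PEO-4 (21.3 ± 1.5 CPM) than in T1074 (15.7 ± 2.4 CPM) by 0.44 ± 0.13 (adjusted p = 0.00624) and did not pass in SKOV-3 (14.7 ± 1.7 CPM, adjusted p = 0.488). The leading PDK2 and PDHA1 transcripts were annotated as retained introns in all lines, and so was that of PDK4 in T1074, where only replicate 2 held counts.

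Other genes of the pathways were counted from lists chosen with results of these data known, and each count is to be read against the 36.3% higher and 37.8% lower in PEO-4, and 33.3% higher and 34.5% lower in SKOV-3, of all genes tested. Of 8 partners of pyruvate entry, 1 was higher and 4 lower in PEO-4 than in T1074, and 3 higher and 4 lower in SKOV-3 than in T1074. PDP1 and PDP2, the phosphatases that switch PDH on again, were among the lower genes: PDP1 averaged 53.8 ± 1.7 CPM in PEO-4, 93.5 ± 8.3 CPM in SKOV-3 and 204.4 ± 51.5 CPM in T1074, and PDP2 12.8 ± 1.2, 18.9 ± 2.2 and 55.1 ± 5.6 CPM. For PDP2 the log2 fold change against T1074 was -2.11 ± 0.12 in PEO-4 (adjusted p = 1.27e-09) and -1.55 ± 0.12 in SKOV-3 (adjusted p = 3.62e-08). MPC1 and MPC2, the carriers of pyruvate into mitochondria, were lower in PEO-4 than in SKOV-3, by -1.08 ± 0.23 and -1.44 ± 0.14 (adjusted p = 0.000611 and 3.60e-07).

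Of 30 other isoenzymes and partners of the same steps, 19 were tested, of which 9 were higher and 6 lower in PEO-4 than in T1074, and 8 higher and 8 lower in SKOV-3 than in T1074. SLC2A6, a transporter of lysosomes, averaged 1.11 ± 0.067 CPM in PEO-4 and 38.2 ± 14.7 CPM in T1074 (-5.10 ± 0.32, adjusted p = 3.87e-09). Of 15 genes of gluconeogenesis and glycogen, 13 were tested, with 6 higher and 5 lower in PEO-4 than in T1074, and 7 higher and 2 lower in SKOV-3 than in T1074. PYGB, the brain form of glycogen phosphorylase, averaged 118.2 ± 12.7 CPM in PEO-4, 923.6 ± 22.8 CPM in SKOV-3 and 153.9 ± 18.3 CPM in T1074, 2.59 ± 0.12 higher in SKOV-3 than in T1074 (adjusted p = 2.31e-10). PGM1, which links glycogen to glycolysis, was higher in SKOV-3 (138.6 ± 14.6 CPM) than in T1074 (21.9 ± 4.6 CPM) by 2.66 ± 0.16 (adjusted p = 3.37e-09). GBE1, the branching enzyme, averaged 19.6 ± 2.8 CPM in PEO-4 and 86.8 ± 14.7 CPM in SKOV-3 (-2.15 ± 0.14, adjusted p = 4.59e-09). PYGL and PGM2 were lower in PEO-4 than in T1074, by -1.60 ± 0.16 (adjusted p = 5.51e-07) and -1.28 ± 0.10 (adjusted p = 5.45e-08).

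Of 18 HIF targets outside the pathway, 5 were higher and 7 lower in PEO-4 than in T1074, and 8 higher and 4 lower in SKOV-3 than in T1074. The shares over all genes tested were 36.3% higher and 37.8% lower in PEO-4, and 33.3% higher and 34.5% lower in SKOV-3. CA12, a membrane carbonic anhydrase, averaged 16.1 ± 3.6 CPM in PEO-4, 136.5 ± 17.1 CPM in SKOV-3 and 14.4 ± 3.7 CPM in T1074 (3.25 ± 0.21 in SKOV-3 against T1074, adjusted p = 6.11e-09), and MXI1 rose in SKOV-3 by 1.93 ± 0.14 (adjusted p = 1.64e-08). In PEO-4, P4HA2 and ADM were lower than in T1074, by -1.93 ± 0.16 (adjusted p = 8.46e-08) and -2.78 ± 0.48 (adjusted p = 0.000112). Of 13 regulators, 4 were higher and 5 lower in PEO-4 than in T1074, and 4 were higher and 4 lower in SKOV-3 than in T1074. EPAS1 (HIF2A) had 4.80, 6.18, 5.87 and 4.65 CPM in PEO-4, 152.4, 138.3, 198.5 and 143.7 CPM in SKOV-3 and 315, 217.7, 435.5 and 320 CPM in T1074, -5.90 ± 0.23 in PEO-4 against T1074 (adjusted p = 3.02e-11). HIF1A, named after its values were seen, averaged 137.5 ± 6.0 CPM in PEO-4, 900.7 ± 94.2 CPM in SKOV-3 and 219.9 ± 54.8 CPM in T1074, higher in SKOV-3 by 2.03 ± 0.16 (adjusted p = 3.96e-08) and lower in PEO-4 by -0.68 ± 0.15 (adjusted p = 0.000953). MYC, named in the same way, averaged 501.8 ± 59.9 CPM in PEO-4, 106.3 ± 24.7 CPM in SKOV-3 and 128.9 ± 37.5 CPM in T1074 (1.96 ± 0.20 in PEO-4 against T1074, adjusted p = 6.81e-07). PPARGC1A, a coactivator of mitochondrial genes, averaged 13.6 ± 1.9 CPM in PEO-4, 8.65 ± 0.85 CPM in SKOV-3 and 0.102 ± 0.060 CPM in T1074.

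Within PEO-4, the libraries were not alike for these genes. Of the 36 genes, 22 (61.1%) had both replicates 2 and 3 above both replicates 1 and 4, and 6 (16.7%) had them below, against 31.2% and 29.0% of 15008 genes with a mean of at least 1 CPM. All 6 genes of lower glycolysis and 7 of 9 of upper glycolysis were above, and so were 13 of the 18 HIF targets, but 1 of 6 genes of the pentose phosphate pathway. PFKFB4 was 2.03 times, LDHA 1.54 times and SLC16A3 1.45 times as high in replicates 2 and 3. LDHB was 0.841 times and PGLS 0.773 times as high. Among the HIF targets, the largest rises were those of CA9 (3.66 times, at a PEO-4 mean of 1.98 CPM) and ADM (3.13 times). In 4 of the 18 HIF targets (22.2%), replicates 2 and 3 lay below replicates 1 and 4. CA12 was 0.692 times, P4HA2 0.713 times, MXI1 0.846 times and EGLN1 0.959 times as high. The pairs were noticed in these data and are not groups of the study, and their cause was not tested. Without PEO-4 replicates 2 and 3, 16 of the 36 genes were higher and 10 lower in PEO-4 than in T1074, and without replicates 1 and 4, 16 were higher and 8 lower. The shares of all genes were not counted for these fits. The calls of PKM, PGK1 and PDK3 against T1074 were lost without replicates 2 and 3, and those of PFKM, PFKP, PGLS, PDHA1 and PDK3 without replicates 1 and 4.

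**Figure D4:**
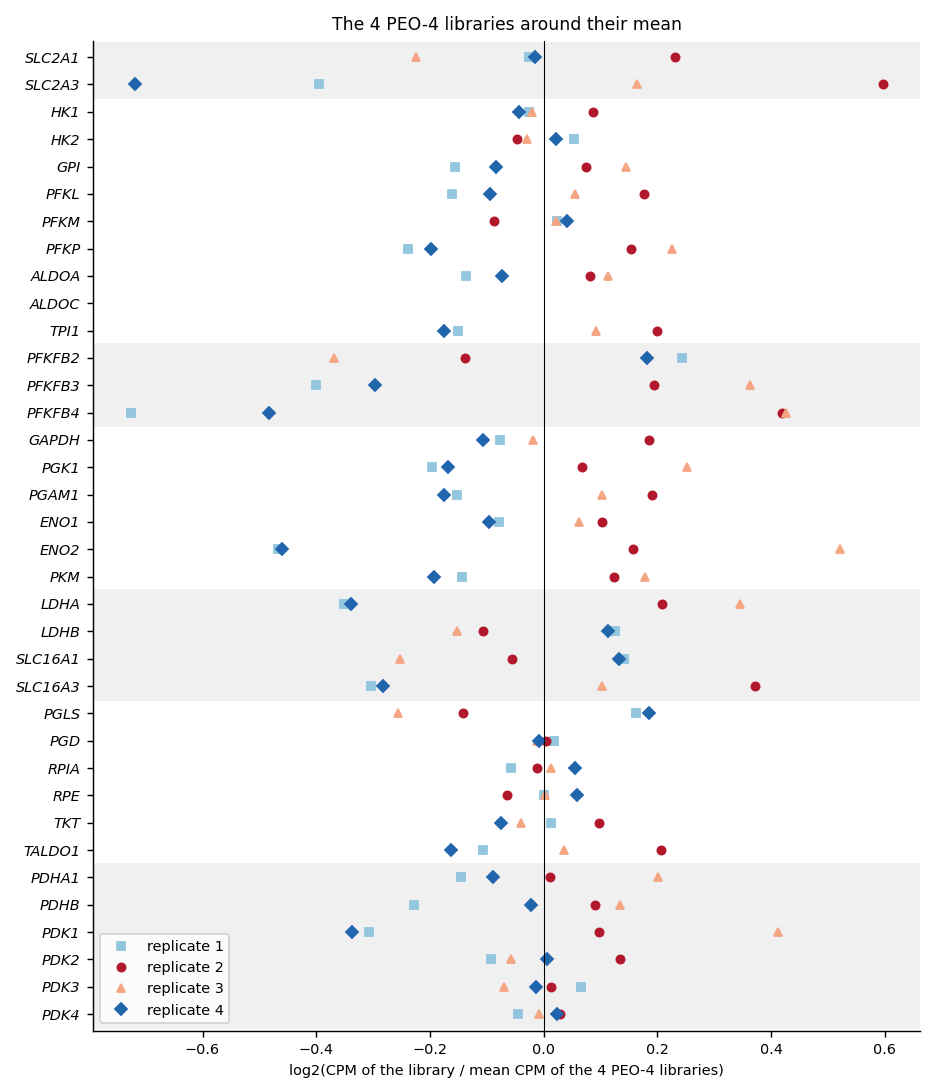
Level of each gene in each of the 4 PEO-4 libraries as log2 of its CPM over the mean CPM of the 4 libraries, in the order of the pathway (ALDOC, with 0 counts in 2 libraries, is left out). Replicates 2 and 3 lie right of replicates 1 and 4 for all 6 genes of lower glycolysis and for LDHA and SLC16A3, and left of them for LDHB, SLC16A1 and PFKFB2.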

How the data were processed

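The members and all lists, motifs and tests were chosen with earlier results of these data known. Total RNA was depleted of rRNA and sequenced paired-end from a strand-specific kit. The authors trimmed reads with Trimmomatic 0.39, aligned them to hg38 with STAR 2.7.3a and quantified Gencode transcripts with RSEM 1.3.1. The deposited values used here were the expected counts and the TPM of 244939 transcripts in each of 12 libraries. Expected counts were summed to 61533 genes and rounded to whole numbers, and 61369 IDs matched GENCODE 44 by name. The quasi-likelihood test of edgeR 4.0.16 was fitted to all 12 libraries with TMM factors and the filter filterByExpr, and checked on simulated data. DESeq2 1.42.0 was an alternative. The SE is the absolute log2 fold change over the square root of F. Shares of TPM were compared with two-sided exact permutation tests. Intervals of count ratios cover counting error only. Replicates of a line differed beyond sampling noise (chi-square per degree of freedom 23.2 to 300.5). All 36 members are named, and of each other list the 2 genes with the largest change in a comparison that passed the test and had at least 5 CPM in 1 of its lines. Sequences came from GENCODE 44 (GRCh38) and RefSeq (GRCh38.p14).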

Additional observations from a re-analysis of the deposited data

Results flagged for a closer look

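In 7 of 108 sets of 4 libraries (36 genes in 3 lines), 1 library of a line lay far from the other 3 for a gene, by a test of the gap against the range of 4 values that chance alone passes in about 1 in 20 sets, so that 7 is near the number chance gives. HK1 had 157.2 CPM in SKOV-3 replicate 2, against 154.0 to 154.3 CPM in the other SKOV-3 libraries. HK2 had 43.62 CPM in T1074 replicate 2, against 65.35 to 68.89 CPM in the others of T1074. PFKM had 79.74 CPM in PEO-4 replicate 2 (others 86.05 to 87.15 CPM), and PFKFB2 had 18.42 CPM in T1074 replicate 3 (others 24.67 to 25.34 CPM). SLC16A3 had 424.9 CPM in SKOV-3 replicate 4 (others 327.7 to 344.0 CPM), and PDHA1 had 76.52 CPM in T1074 replicate 4 (others 45.07 to 50.37 CPM). PDK4 had 0.1146 CPM in T1074 replicate 2 and 0 counts in the other T1074 libraries.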

How the results depend on the processing

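Of 89 differences of a member past the threshold, 70 kept their call and direction under all 23 alternative fits at the same threshold, 19 were lost under at least 1 and 0 turned round. Of 19 not past it, 10 passed under at least 1 of these fits and 10 had the other sign under at least 1. If a log2 fold change beyond 1 in either direction was required as well, 2 members were higher and 5 lower in PEO-4 than in T1074, and 5 were higher and 13 lower in PEO-4 than in SKOV-3. With scaling by library size only, which shifts the median of all genes by -0.156 in PEO-4 against T1074 and -0.2 in SKOV-3 against T1074, 11 members were higher in PEO-4 than in T1074, and the calls of PFKM, PGK1, PKM, PGLS, PGD and PDK2 there were lost. Replicate numbers did not pair the libraries (correlations -0.0793 to 0.0692). With the replicate block, 17 members were higher and 11 lower in PEO-4 than in T1074, 18 and 10 in SKOV-3 than in T1074, and 11 and 19 in PEO-4 than in SKOV-3. The shares of all genes higher or lower were counted for the main fit at an adjusted p under 0.05 only, so that these counts have no background. The causes were not tested.

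The sign changed for 10 log2 fold changes that did not pass and for 4 share differences. In PEO-4 against T1074, TKT was 0.0725 with RLE, 0.108 with protein-coding genes only, 0.0468 without a filter, 0.0314 with the replicate block, 0.104 with 8 libraries, 0.0724 with DESeq2, 0.0800 without PEO-4 replicates 2 and 3 and 0.0453 without 1 and 4. By library size only, HK1 was -0.0761, PFKFB3 -0.0773, SLC16A3 -0.112 and RPIA -0.0810. With length-scaled TPM counts, PFKFB4 was 0.0235 and SLC16A3 -0.00576. Without PEO-4 replicates 2 and 3, PFKFB3 was -0.167 and SLC16A3 -0.159, and without 1 and 4, PFKFB4 was 0.292. Leaving out 1 replicate at a time gave -0.137 to 0.231 for TKT, -0.273 to 0.144 for PFKFB4, -0.133 to 0.218 for SLC16A3, -0.000163 to 0.287 for PFKFB3, -0.00625 to 0.205 for RPIA and -0.0372 to 0.199 for HK1. In SKOV-3 against T1074, PDHA1 was 0.0297 with RLE, 0.0807 without a filter, 0.00073 with the replicate block, 0.0279 with length-scaled TPM counts, 0.0296 with DESeq2, 0.0495 without PEO-4 replicates 2 and 3, 0.00485 without 1 and 4, and -0.104 to 0.197 without 1 replicate. SLC16A1 was -0.150 by library size only and -0.0204 to 0.182 without 1 replicate. In PEO-4 against SKOV-3, PDK1 was -0.0686 with length-scaled TPM counts, -0.169 without PEO-4 replicates 2 and 3, and -0.00559 to 0.260 without 1 replicate, and ENO2 was 0.0656 without 1 and 4. With shares of expected counts, PFKFB3 differed by 0.753 points and PDK1 by 13.7 points in PEO-4 minus SKOV-3, PDK1 by -9.11 points in SKOV-3 minus T1074 and PDK2 by 1.27 points in PEO-4 minus T1074, where leaving out 1 replicate gave -5.78 to 1.80 points.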
